A study of Mus musculus with 6 samples.

Results

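Complement genes were compared between resting bone-marrow-derived macrophages (BMDMs) of 2 genotypes, to ask how their expression differs in unstimulated cells that lack the transcriptional co-regulator CITED2. The 9 genes described are *C1qa*, *C1qb*, *C1qc*, *C4b*, *C3*, *Cfb*, *Cfp*, *C3ar1* and *C5ar1*, taken by their symbols from the 22248 genes for which the authors deposited expression values. BMDMs are macrophages grown in culture from bone marrow cells with macrophage colony-stimulating factor. The control group consisted of 3 libraries from C57BL/6 mice with *Lyz2cre*, and the CITED2-deficient group of 3 libraries from C57BL/6 mice with *Cited2* fl/fl:*Lyz2cre*. Both groups therefore carried Cre recombinase made from the *Lyz2* locus, which is active in myeloid cells, and only the second group carried floxed *Cited2* alleles for it to delete. The labels give an age of 10 weeks for all mice, and no stimulus was given to the cells. Whether each library came from a separate mouse is not stated in the labels, so the p-values measure the spread between these libraries, which may be technical.

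Complement is a cascade of serum proteins that marks microbes and dying cells for uptake and can lyse membranes. C1q starts the classical pathway and, with C1r and C1s, leads to cleavage of C4 and C2, while the alternative pathway amplifies the cleavage of C3 through factor B, factor D and properdin. The fragments C3a and C5a, called anaphylatoxins, are read by receptors on myeloid cells. Most complement proteins of the blood come from the liver, but macrophages are a main source of C1q and make C3, properdin and factor B locally.

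Values are FPKM (fragments per kilobase of transcript, scaled to the depth of the library). The 6 libraries held 17289286 to 26100410 fragments, and the CITED2-deficient libraries were on average 1.34 times as deep as the controls. *Cited2* itself was at 71.7, 79.3 and 75.5 FPKM in control replicates 1 to 3 and at 9.27, 7.22 and 7.53 FPKM in CITED2-deficient replicates 1 to 3 (log2 fold change -3.09, SE 0.08, adjusted p = 6.57e-09 from limma), so every library matched its label. The macrophage markers *Adgre1* (1748 to 2234 FPKM), *Cd68* (1619 to 1725 FPKM) and *Csf1r* (906 to 1146 FPKM) were high in all libraries. Markers of T or NK cells, erythroid cells and dendritic cells summed to at most 2.43 FPKM per list and library. The B cell list summed to 2.65 to 3.88 FPKM in the controls and 3.77 to 4.30 FPKM in the CITED2-deficient libraries. For the mast cell or basophil list the sums were 3.95 to 4.51 FPKM and 1.42 to 1.80 FPKM. The fibroblast or stromal list of 13 genes had 10 members tested, and all 10 were higher in the CITED2-deficient group (16.7% of all tested genes were), with a summed level of 67.4 to 84.0 FPKM in the controls and of 666, 249 and 261 FPKM in CITED2-deficient replicates 1 to 3. The 16 genes of the interferon response list were all higher as well, with a summed level of 567 to 623 FPKM in the controls and 3826, 4268 and 4114 FPKM in CITED2-deficient replicates 1 to 3. Of the 6 genes on the monocyte list 5 were higher and *Chil3* was lower. The list summed to 251 to 289 FPKM in the controls and 333 to 368 FPKM in the CITED2-deficient libraries, and *Plac8* went from a mean of 4.78 to 65.4 FPKM and *Ly6c2* from 7.71 to 36.0 FPKM. The endothelial list, of which 2 of 3 tested genes were higher, summed to 6.00 to 6.25 FPKM against 27.4 to 32.6 FPKM, most of it *Kdr* (a mean of 4.26 against 27.5 FPKM). The part of these cell types in the changes of the complement genes was not tested. In bulk RNA, fewer cells of a type and less RNA per cell cannot be told apart.

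Of the 9 genes, 8 had a mean of at least 1 FPKM and were tested, and all 8 passed the threshold of an adjusted p of 0.05. *C3*, *C4b* and *C3ar1* were higher and *C1qa*, *C1qb*, *C1qc*, *Cfp* and *C5ar1* were lower in CITED2-deficient BMDMs. Across all 11687 tested genes 51.3% passed, with 16.7% higher and 34.6% lower, so passing the threshold was common and the size of a change says more about each gene. The median log2 fold change was -0.32 over the 8 tested complement genes and -0.10 over all tested genes. No control library overlapped with a CITED2-deficient library for any of the 9 genes, which was also the case for 59.9% of all tested genes. The plot of the 9 genes by library shows the separation between the groups.

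**Figure D1:**
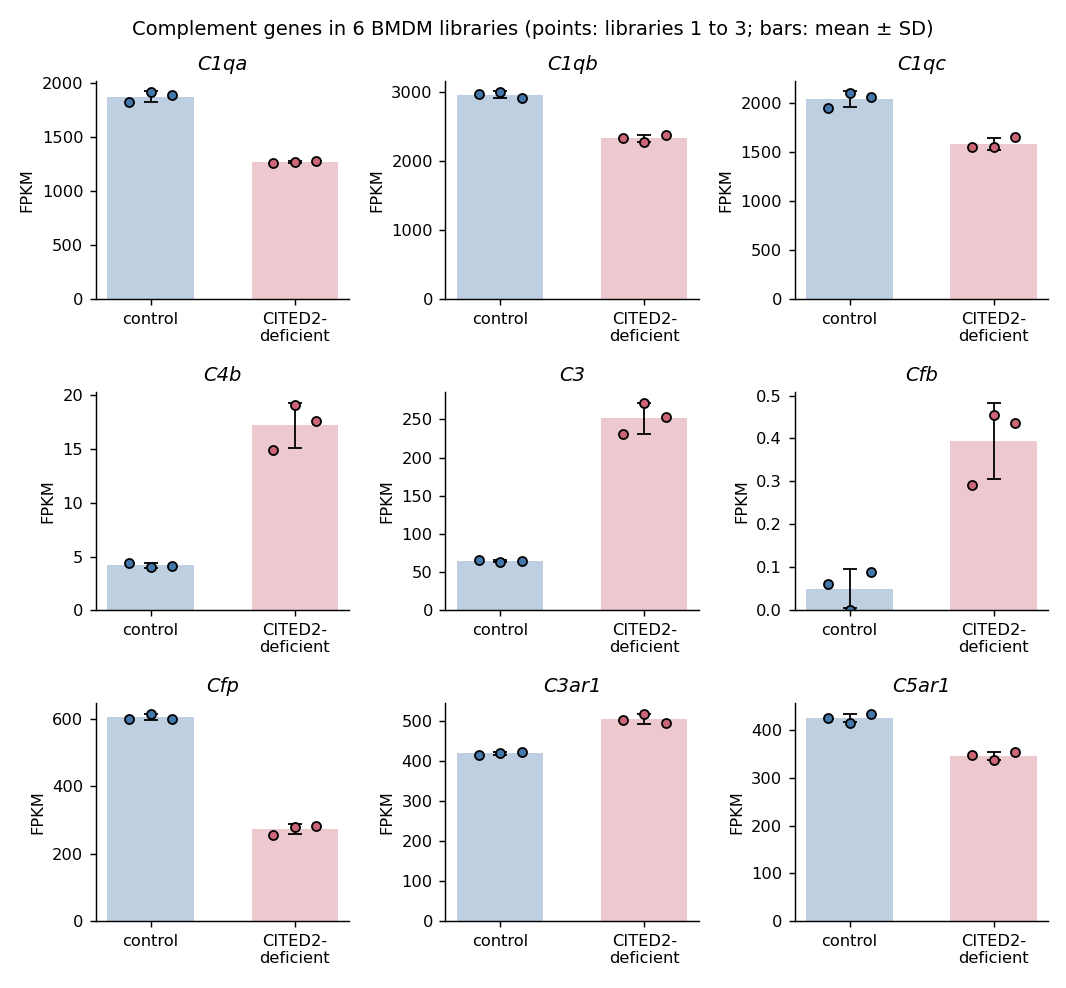
FPKM of each of the 9 complement genes (y axis, starting at 0, with its own scale per gene) in control and CITED2-deficient BMDMs, with 1 point per library and bars for mean ± SD (n = 3). The points of the 2 groups do not overlap in any panel, *C3* lies at 62.7 to 65.6 against 230 to 271 FPKM, and *Cfb* stays under 0.5 FPKM throughout.

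The 3 chains of C1q, the recognition protein that binds antibody complexes and apoptotic cells, were among the most abundant transcripts of these macrophages and all fell. *C1qa*, *C1qc* and *C1qb*, which encode the A, C and B chains, lie side by side on the minus strand of chromosome 4 and together span 18675 bases (mm10, chr4:136880129-136898803). Each has 3 exons in its longest transcript. *C1qb* ranked 19, *C1qc* 27 and *C1qa* 29 among all listed genes by mean FPKM in the controls, and 22, 36 and 48 in the CITED2-deficient group.

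*C1qa* (ENSMUSG00000036887, chr4:136895917-136898803) was at 1825, 1920 and 1889 FPKM in the controls and at 1265, 1276 and 1284 FPKM in the CITED2-deficient libraries. The highest CITED2-deficient library thus lay well under the lowest control. Its mean went from 1878 ± 48.3 to 1275 ± 9.65 FPKM (SD, n = 3 each), with a log2 fold change of -0.56 (SE 0.03, 95% interval -0.62 to -0.50, adjusted p = 3.12e-07 from limma). Of all tested genes, 6.58% fell at least as far as *C1qa* with an adjusted p under the threshold.

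*C1qb* (ENSMUSG00000036905, chr4:136880129-136886187) was at 2964, 3004 and 2906 FPKM in the controls and at 2329, 2276 and 2376 FPKM in the CITED2-deficient libraries. The mean fell by 21.3%, from 2958 ± 49.4 FPKM (SD, n = 3), against 32.1% for *C1qa* (log2 fold change -0.35, SE 0.03, adjusted p = 7.82e-06 from limma). It was at least matched by 16.1% of all tested genes.

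*C1qc* (ENSMUSG00000036896, chr4:136889804-136893065) was at 1948, 2105 and 2058 FPKM in the controls and at 1548, 1549 and 1656 FPKM in the CITED2-deficient libraries. Its log2 fold change of -0.36 (SE 0.04, adjusted p = 5.59e-05 from limma) was close to that of *C1qb*. After median-ratio scaling, which moves the median of all genes to -0.0069, the log2 fold changes of *C1qa*, *C1qb* and *C1qc* were -0.45, -0.24 and -0.26, and all 3 still passed.

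The balance of the C1q chains was compared as well. The deposited FPKM are scaled to the mean transcript length of a gene. The chains can thus be set against each other within a library, but their order depends on the length used. *C1qa* made up 27.1%, 27.3% and 27.6% of the summed C1q FPKM in the controls and 24.6%, 25.0% and 24.2% in the CITED2-deficient libraries, a difference of -2.73 percentage points. The share of *C1qb* was 43.0% ± 0.841 in the controls and 44.9% ± 0.374 in the CITED2-deficient group, and that of *C1qc* was 29.6% ± 0.622 and 30.5% ± 0.546 (SD, n = 3 each). Groups did not overlap for any of the 3 shares, and each gave p = 0.1 in a two-sided exact permutation test, which is the smallest p that 3 against 3 libraries can give. Adjusted over the 4 ratios tested in this way, p stayed at 0.1 in the exact test. The sum of the 3 chains went from 6873 ± 147 to 5187 ± 114 FPKM, or from 1.02% to 0.785% of all listed FPKM.

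*C3* and *C4b*, the related central proteins of the cascade, rose by nearly the same factor from very different levels. C3 is cleaved by the convertases of every pathway, and its fragment C3b coats targets for uptake. *C4b* encodes C4, which is part of the convertase of the classical and lectin pathways and is cleaved by C1s in the classical pathway. Both genes lie on chromosome 17, *C4b* in the major histocompatibility complex and *C3* outside it, 22460 kb away.

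*C3* (ENSMUSG00000024164, chr17:57203970-57228136, 41 exons in the longest transcript) was at 65.6, 62.7 and 64.9 FPKM in the controls and at 230, 271 and 254 FPKM in the CITED2-deficient libraries. Even the lowest CITED2-deficient library was far above all controls. The mean went from 64.4 ± 1.55 to 252 ± 20.4 FPKM (SD, n = 3 each), 3.91 times the control level, and the log2 fold change was 1.95 (SE 0.05, 95% interval 1.82 to 2.07, adjusted p = 9.03e-09 from limma). Only 0.881% of all tested genes (103 genes) rose as far as *C3* or further, and its rank by mean FPKM went from 1844 to 411.

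*C4b* (ENSMUSG00000073418, chr17:34728380-34743882) was at 4.40, 4.03 and 4.09 FPKM in the controls and at 14.9, 19.1 and 17.6 FPKM in the CITED2-deficient libraries. These values rest on 160 to 191 fragments per control library and 868 to 1058 per CITED2-deficient library. The mean was 4.12 times the control level, with a log2 fold change of 1.81 on the log2(FPKM + 1) scale (SE 0.09, adjusted p = 4.55e-07 from limma), and 1.04% of all tested genes rose at least as far. *C4a*, a close paralog 65.2 kb away, shares 34.6% of the 50-base words of the *C4b* transcripts, so fragments could have been divided between them. *C4a* was at 0.565, 0.736 and 0.585 FPKM in the controls and at 0.549, 0.527 and 0.409 FPKM in the CITED2-deficient libraries, below the filter.

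Fibroblasts also make C3 and C4, and the fibroblast or stromal markers were highest in CITED2-deficient replicate 1, where *Col1a1* reached 305 FPKM against 62.0 and 62.6 FPKM in replicates 2 and 3. *C3* and *C4b* were lowest in that library among the CITED2-deficient group. Without it the log2 fold changes were 2.01 for *C3* and 1.90 for *C4b*, but the other CITED2-deficient libraries still held 249 and 261 FPKM of fibroblast or stromal markers against 67.4 to 84.0 FPKM in the controls. The interferon response list was also lowest in CITED2-deficient replicate 1. The part of fibroblasts and of the interferon response in the rise of *C3* and *C4b* was not tested.

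*Cfb* (ENSMUSG00000090231, chr17:34856374-34862518) encodes factor B, the protease part of the alternative pathway convertase, and was the only one of the 9 genes below the filter. It gave 2, 0 and 3 fragments in the controls and 13, 18 and 20 in the CITED2-deficient libraries, equal to 0.060, 0 and 0.090 FPKM against 0.292, 0.454 and 0.437 FPKM. Every CITED2-deficient library was above every control, but all were near the detection limit, since the 0 in control replicate 2 allows up to 0.0989 FPKM (3 fragments). Corrected for depth, the summed fragments (5 against 51) differed 7.59-fold, with an exact 95% interval of 3.05 to 24.4 that covers counting error only. In the fit without a filter, in which 26.2% of 22248 genes passed and 9.90% were higher, *Cfb* rose with a log2 fold change of 0.41 (SE 0.07, adjusted p = 0.00467 from limma). That value depends on the pseudocount, being 0.70 with 0.5 and 1.75 with 0.1 in place of 1. *Cfb* lies 112 kb from *C4b*, and 73.0% of its 50-base words also occur in the overlapping gene model *Gm20547*, so its level is uncertain.

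*Cfp* (ENSMUSG00000001128, chrX:20925454-20931555, 9 exons in the longest transcript) encodes properdin, which stabilizes the alternative pathway convertase and is made by myeloid cells. It was at 599, 614 and 599 FPKM in the controls and at 256, 281 and 281 FPKM in the CITED2-deficient libraries. The mean fell by 54.9%, from 604 ± 8.96 to 273 ± 14.1 FPKM (SD, n = 3 each), the largest fall among the 9 genes (log2 fold change -1.15, SE 0.04, 95% interval -1.23 to -1.06, adjusted p = 2.74e-08 from limma). Only 1.09% of all tested genes (127 genes) fell as far or further. *Cfp* went from rank 125 to rank 372 by mean FPKM. Granulocyte precursors also make properdin, and of the 9 tested genes on the neutrophil or precursor list 6 were lower and 2 higher (34.6% of all tested genes were lower and 16.7% higher). The list summed to 801, 810 and 741 FPKM in control replicates 1 to 3 and to 784, 708 and 666 FPKM in CITED2-deficient replicates 1 to 3. The 2 genes that rose were *Ltf*, from a mean of 94.3 to 177 FPKM, and *Retnlg*, from 0.649 to 4.50 FPKM, and the one that fell furthest was *Mpo*. *Mpo*, which encodes the granule enzyme myeloperoxidase, was at 17.4, 17.8 and 13.6 FPKM in the controls and at 2.24, 1.70 and 1.92 FPKM in the CITED2-deficient libraries. The part of such cells in the fall of *Cfp* was not tested.

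The anaphylatoxin receptors moved in opposite directions. Both are G-protein-coupled receptors of myeloid cells, *C3ar1* (ENSMUSG00000040552, chr6:122847138-122856161) for C3a and *C5ar1* (ENSMUSG00000049130, chr7:16246743-16259540) for C5a. *C3ar1* was at 415, 421 and 422 FPKM in the controls and at 502, 518 and 495 FPKM in the CITED2-deficient libraries. It rose by 20.4% (log2 fold change 0.27, SE 0.03, 95% interval 0.21 to 0.33, adjusted p = 4.19e-05 from limma).

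*C5ar1* was at 425, 415 and 433 FPKM in the controls and at 347, 337 and 353 FPKM in the CITED2-deficient libraries. Its mean fell by 18.5%, to 346 ± 8.16 FPKM (SD, n = 3), with a log2 fold change of -0.30 (SE 0.03, 95% interval -0.36 to -0.23, adjusted p = 3.87e-05 from limma). The log2 ratio of *C3ar1* to *C5ar1* was -0.035, 0.020 and -0.037 in the controls and 0.53, 0.62 and 0.49 in the CITED2-deficient libraries. The groups did not overlap in this ratio (0.988 against 1.46, p = 0.1 in the exact permutation test, the smallest possible). The deposited FPKM of the receptors overlapped in the controls, but that depends on the transcript length used: with longest transcripts the control means were 419 FPKM for *C3ar1* and 317 FPKM for *C5ar1*, and the change in the ratio is the same. Neither direction flipped under the other scalings, where *C3ar1* had log2 fold changes of 0.36 (quantile) and 0.37 (median ratio) and *C5ar1* of -0.20 and -0.19.

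**Figure D2:**
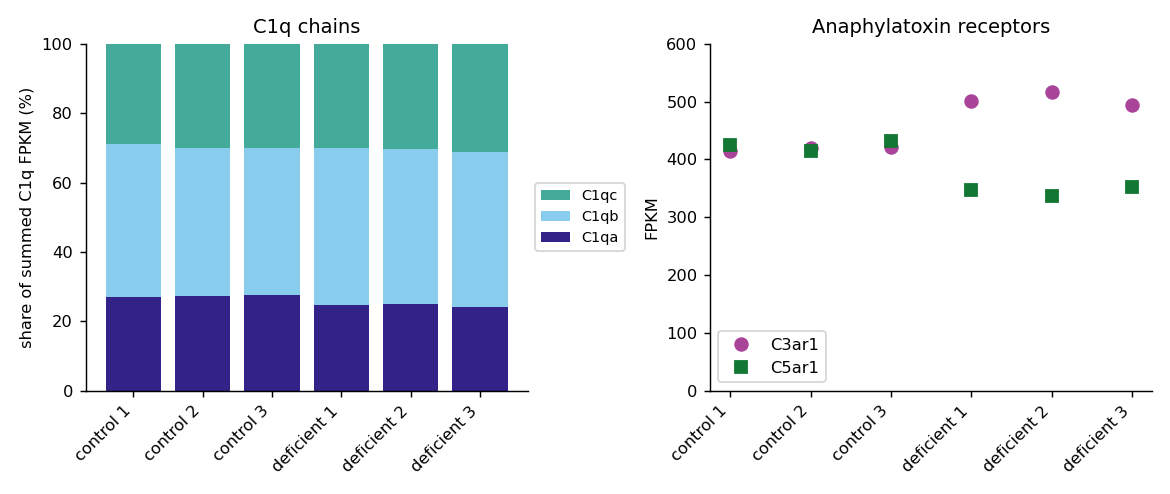
Left, the share of *C1qa*, *C1qb* and *C1qc* in their summed FPKM (percent, stacked to 100) for each of the 6 libraries; right, FPKM of *C3ar1* and *C5ar1* in the same libraries, 1 point each. The *C1qa* share lies at 27.1 to 27.6% in the controls and at 24.2 to 25.0% in the CITED2-deficient libraries, and in the deposited FPKM, which use mean transcript lengths, the receptors overlap in the controls and not in the CITED2-deficient libraries.

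By level in the deposited FPKM, the order in the controls was *C1qb*, *C1qc*, *C1qa*, *Cfp*, *C5ar1*, *C3ar1*, *C3*, *C4b* and *Cfb*. Only *C5ar1* and *C3ar1* had overlapping ranges among neighbors in that order. In the CITED2-deficient group *C3ar1* and *C5ar1* stood above *Cfp*, and *Cfp* (256 to 281 FPKM) and *C3* (230 to 271 FPKM) overlapped. The deposited FPKM use the mean length of a gene's transcripts, 1666 bases for *C3*, whereas its longest transcript has 5136 bases. With the longest transcript the level of *C3* would be 20.9 FPKM in the controls and 81.6 FPKM in the CITED2-deficient group, and that of *Cfp* 376 and 170 FPKM, so these genes would no longer be close in the CITED2-deficient group. The order in the controls would change too, with *C1qa* (1878 FPKM) above *C1qc* (1819 FPKM) and *C3ar1* (419 FPKM) above *Cfp* and *C5ar1*. The choice of length does not move the ratio of a gene's FPKM between the groups.

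The 250 bases before the start of *C3* and *C3ar1*, which rose, and of *C1qb*, which fell, are shown as examples. Each stretch holds 1 match to a searched motif of a macrophage or inflammatory transcription factor, as does that of *C1qc*. RefSeq promoter windows (GRCm38.p6, 250 bases before to 50 after the start) were found for 6 of the 9 genes. They are *C3*, *C3ar1*, *C1qb*, *C1qc*, *Cfp* and *C5ar1*. The windows printed are chr17:57228137-57228386 for *C3*, chr6:122856158-122856407 for *C3ar1* and chr4:136886201-136886450 for *C1qb*, each on the minus strand and written 5′ to 3′. Capitals mark the match, to the C/EBP letters TTGCNNAA in *C3*, to the AP-1 letters TGANTCA in *C3ar1* and to the PU.1 letters GAGGAA in *C1qb*.
C3: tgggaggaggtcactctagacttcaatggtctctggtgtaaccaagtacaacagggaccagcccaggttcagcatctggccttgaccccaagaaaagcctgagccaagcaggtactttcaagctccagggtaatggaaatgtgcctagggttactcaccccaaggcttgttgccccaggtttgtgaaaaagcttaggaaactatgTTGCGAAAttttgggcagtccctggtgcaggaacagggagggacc
C3ar1: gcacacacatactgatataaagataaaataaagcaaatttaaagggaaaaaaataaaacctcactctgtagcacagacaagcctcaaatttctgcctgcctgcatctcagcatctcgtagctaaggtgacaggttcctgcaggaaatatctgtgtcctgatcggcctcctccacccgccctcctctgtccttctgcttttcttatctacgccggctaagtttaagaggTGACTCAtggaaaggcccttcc
C1qb: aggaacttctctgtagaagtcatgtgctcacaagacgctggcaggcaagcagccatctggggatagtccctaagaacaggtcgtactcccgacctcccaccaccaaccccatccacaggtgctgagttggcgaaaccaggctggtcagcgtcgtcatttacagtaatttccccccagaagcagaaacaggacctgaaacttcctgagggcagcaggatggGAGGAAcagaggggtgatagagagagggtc

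The C/EBP match of *C3* lay 45 to 38 bases before the start, the AP-1 match of *C3ar1* 22 to 16 bases before it and the PU.1 match of *C1qb* 30 to 25 bases before it. *C1qc* held a PU.1 match on the opposite strand 193 to 188 bases before its start, and *Cfp* held a pair of them, at positions 7 to 12 and 23 to 28 after its start. The letters of an interferon-stimulated response element (GAAA, any 2 bases and GAAA again), of a gamma-activated sequence (TTCNNNGAA) and of an NF-kB site (GGGA, any 2 bases and TTCC) were in none of the 6 windows, and *C5ar1* held no match to any of the 6 motifs. Of all 32851 RefSeq windows searched on both strands, 10.8% held the C/EBP letters, 7.81% the AP-1 letters, 28.3% the PU.1 letters, 3.44% the interferon element, 8.30% the gamma-activated sequence and 1.47% the NF-kB letters. A match is a stretch of letters and no measure of binding.

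**Figure D3:**
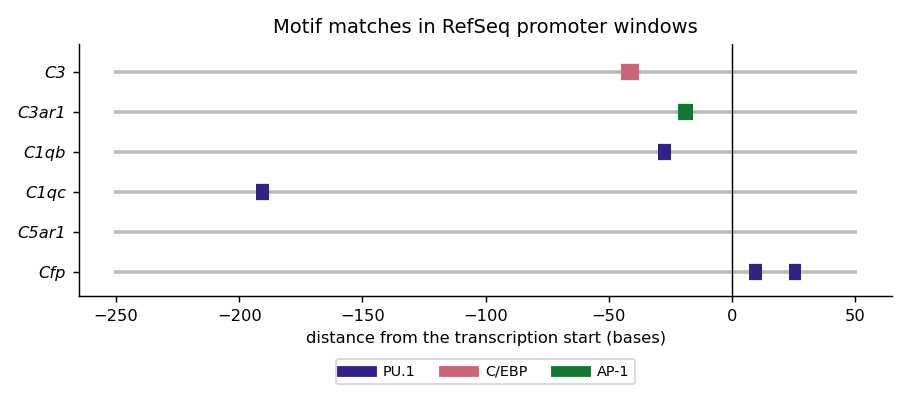
Matches to the C/EBP, AP-1 and PU.1 letters (colored blocks) along the RefSeq windows of 6 complement genes, plotted by distance from the transcription start in bases, from 250 before it to 50 after it. *C3*, *C3ar1* and *C1qb* each have 1 match within 45 bases before the start, and *C5ar1* has none.

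The other genes of the complement system were taken from a list of 45 genes, of which 31 were listed and 19 were tested. Of these 19, 3 were higher, 11 were lower and 5 did not pass, with a median log2 fold change of -0.31 against -0.10 over all tested genes, of which 16.7% were higher and 34.6% lower. After median-ratio scaling 4 of the 19 were higher and 8 lower, and 2696 and 2490 of all 11687 tested genes. The plot of fold changes sets 18 of them beside the 8 tested genes described above.

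**Figure D4:**
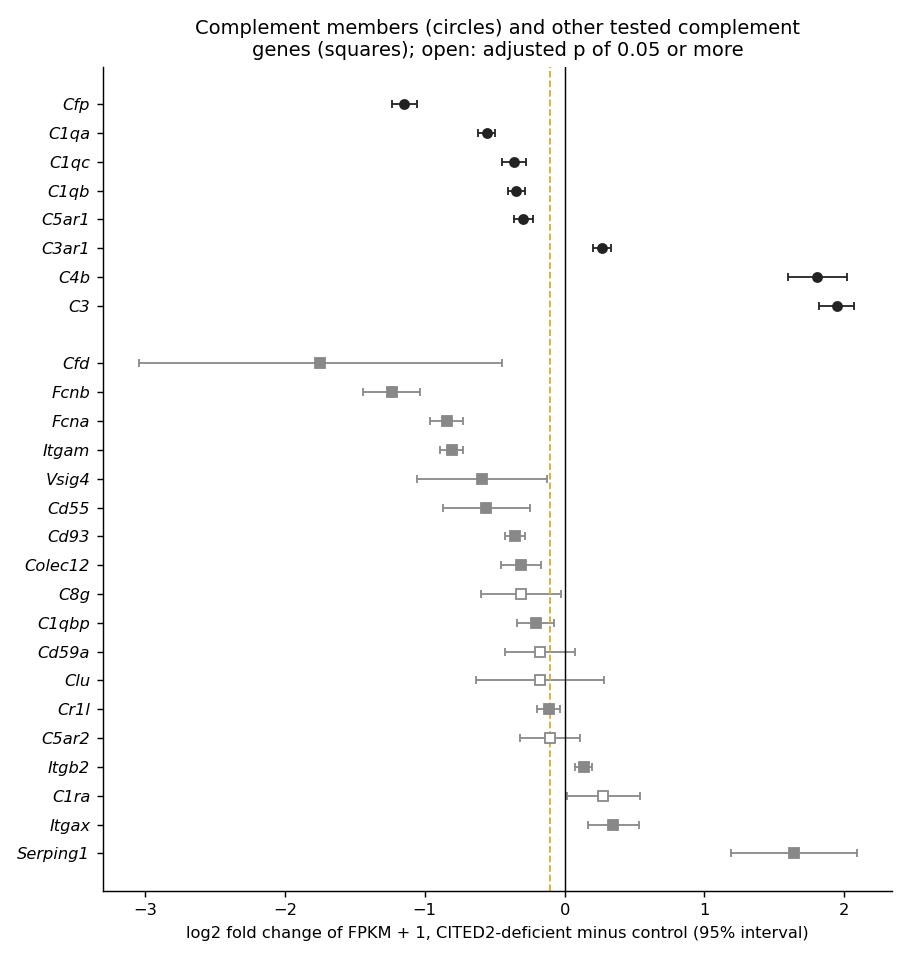
Log2 fold change of FPKM + 1, CITED2-deficient minus control, with 95% intervals from limma for the 8 tested complement genes (circles) and 18 of the 19 other tested genes of the complement list (squares), where open symbols have an adjusted p of 0.05 or more. The solid line is at 0 and the dashed line at the median of all tested genes (-0.10); *C3*, *C4b* and *Serping1* lie farthest to the right, at 1.95, 1.81 and 1.64, and *Cfd* farthest to the left.

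Among the proteases next to C1q and C4, *C1ra*, which encodes C1r, had a log2 fold change of 0.28 and did not pass (adjusted p = 0.0743 from limma), although its groups did not overlap. *C1s1*, *C2* and *Masp1*, which encode the proteases C1s, C2 and MASP-1, were below the filter. *C2*, which lies 85 bases from *Cfb*, gave 5, 7 and 7 fragments in the controls and 25, 18 and 30 in the CITED2-deficient libraries, a depth-corrected ratio of 2.86 (exact 95% interval 1.71 to 5.02). The same ratio was 3.96 (2.82 to 5.67) for *Masp1* and 2.71 (1.77 to 4.28) for *C1s1*. As for *Cfb*, these intervals cover counting error only and not the spread between libraries. The ficolins, lectins that start the lectin pathway, fell, *Fcna* from 29.7 ± 1.00 to 16.1 ± 0.686 FPKM and *Fcnb* from 7.66 ± 0.688 to 2.67 ± 0.135 FPKM (SD, n = 3 each). Their log2 fold changes were -0.84 and -1.23. The collectin *Colec12* was lower by a smaller amount (log2 fold change -0.31).

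*Cfd* encodes factor D, the protease that cleaves factor B. It was at 3.96, 6.46 and 0.118 FPKM in the controls and at 0.044, 0.049 and 0 FPKM in the CITED2-deficient libraries. Control replicate 3 was thus near the CITED2-deficient level, and the log2 fold change of -1.75 (limma, adjusted p = 0.0306) lost its call in 7 of 15 alternatives, among them each library left out other than control replicate 3. It was -1.19 with an adjusted p of 0.103 in limma without control replicate 2, -1.49 without control replicate 1, and from -1.76 to -1.72 without a CITED2-deficient library. *C8g*, the single terminal pathway gene tested, did not pass (log2 fold change -0.31).

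The regulators of the cascade moved in both directions. *Serping1* encodes the C1 inhibitor, which inactivates C1r and C1s, and was at 2.89, 1.32 and 2.48 FPKM in the controls and at 11.1, 7.75 and 7.93 FPKM in the CITED2-deficient libraries. It rose by 1.64 on the log2 scale and was highest in CITED2-deficient replicate 1, and without that library the log2 fold change was 1.49. The fibroblast or stromal list was also highest there, with 666 FPKM against 249 and 261 FPKM in CITED2-deficient replicates 2 and 3. The part of fibroblasts in the rise of *Serping1* was not tested. *Cd55*, the membrane decay-accelerating factor, was lower (log2 fold change -0.56), and *Cr1l*, which encodes the mouse membrane regulator Crry, was lower by 0.11 on that scale, a call that was lost after both other scalings. *Cd59a* and *Clu* did not pass.

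Among the other receptors, *Itgam*, the alpha chain of complement receptor CR3, fell from 89.7 ± 0.865 to 50.9 ± 1.69 FPKM (SD, n = 3 each; log2 fold change -0.81). *Itgax*, the alpha chain of CR4, rose with a log2 fold change of 0.35, and *Itgb2*, the beta chain common to both, with one of 0.14. *Cd93*, a surface protein first described as a C1q receptor, was lower (log2 fold change -0.36). The C3b receptor *Vsig4* was at 1.44, 1.82 and 1.20 FPKM in the controls and at 0.684, 1.11 and 0.2496 FPKM in the CITED2-deficient libraries. Its log2 fold change of -0.59 lost its call in 7 of 15 alternatives, with -0.60, -0.50, -0.61 and -0.39 without control replicates 1 and 2 and CITED2-deficient replicates 1 and 3. *C1qbp*, which encodes a C1q-binding protein, was lower by 0.21 on the log2 scale, and its call was lost after both other scalings. *C5ar2*, the second C5a receptor, did not pass (log2 fold change -0.11, adjusted p = 0.376 from limma).

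The pattern over the 6 libraries was compared with that of every other tested gene by Pearson's r of log2(FPKM + 1), as a description in which the group difference dominates. The genes nearest to *C3* were *Trafd1*, *Ifih1* and *Pml*, and those nearest to *C4b* were *Abcg1*, *Samhd1* and *Pdia3*. *Cfp* was nearest to *Selenbp1*, *Gm26740* and *Atp13a2*, *C3ar1* to *Atf6*, *Cdk6* and *Cpeb4*, and *C5ar1* to *Fmnl1*, *Frat1* and *Zbtb4*. The C1q chains had no nearest gene in common, with *Arsa*, *Gmfb* and *Acat1* for *C1qa*, *Trpv4*, *Maco1* and *Lrmp* for *C1qb* and *Dcaf5*, *Nrbf2* and *Prelid1* for *C1qc*. These genes had r from 0.9978 to 0.9999, and 67 to 406 tested genes per complement gene had r above 0.99.

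All 8 tested complement genes kept their direction and their call under every alternative run, as did *Cfb* under the 14 that gave it a value. The log2 fold change of *C3* ran from 1.89 to 2.05, that of *C4b* from 1.73 to 2.03 and that of *Cfp* from -1.17 to -1.04. *C1qb* had a range of -0.36 to -0.24, with the smallest fall after median-ratio scaling.

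**Figure D5:**
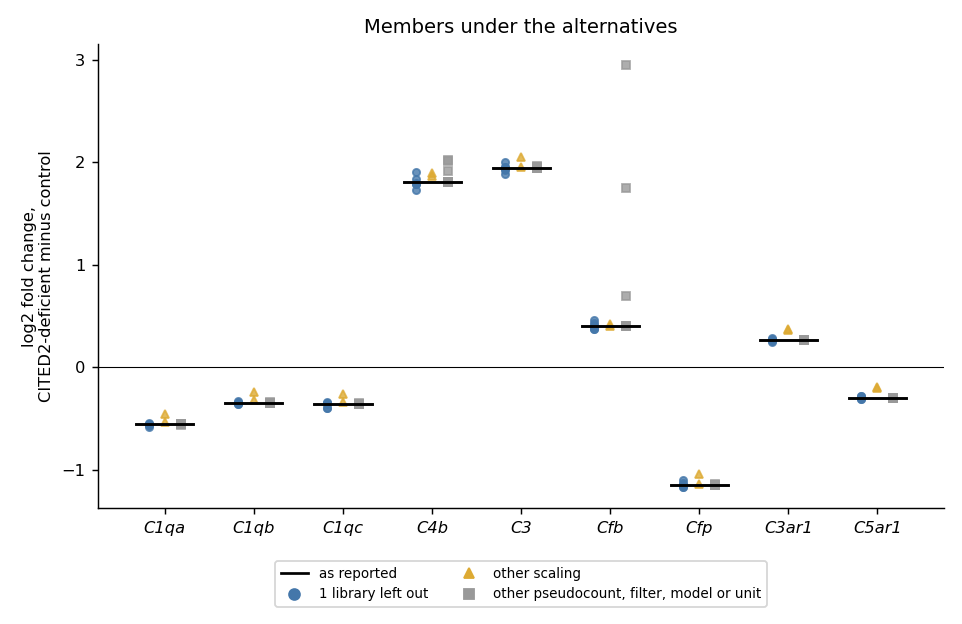
Log2 fold change of the 9 complement genes (CITED2-deficient minus control, y axis) as reported (black lines) and under the alternatives, with circles for 1 library left out, triangles for other scalings and squares for other pseudocounts, filters, models or units. No point crosses 0, and *Cfb*, with values from 0.37 to 2.95 (the highest on recovered fragments), is the gene that moves most.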

How the data were processed

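Total RNA of BMDMs was depleted of ribosomal RNA and made into stranded libraries. The submitters' processing notes name STAR, Cufflinks and Cuffdiff and the mm10 build, but the sources used here give no versions. The deposited values are FPKM that the authors computed per gene and library, without pooling of replicates. Groups were taken from the sample titles.

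The 11687 genes whose FPKM averaged 1 or more were compared as log2(FPKM + 1). The test was limma 3.58.1 (R 4.3.3) with an intensity-dependent prior variance, and p-values were adjusted over all 11687 genes by the Benjamini-Hochberg method. Fold changes on this scale understate the change of low genes. The limma step was tested on simulated fragment numbers, whose spread between libraries was a fixed setting and was not fitted to these replicates. Fragment numbers were recovered from the FPKM and the mean transcript lengths of GENCODE vM21, and 96.1% of 22239 matched genes came out whole in every library, with a tolerance of 0.02 fragments. Replicates differed by more than sampling noise (mean chi-square per gene from 2.31 to 6.46), so none was counted as a duplicate. Ratios within libraries were compared by exact permutation tests (scipy 1.17.1).

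The genes named are the 9 complement genes, tested genes of the complement list, *Cited2*, the most abundant marker genes and, per tested gene, the 3 of most similar pattern. 1 tested gene of the complement list is counted but not reported here. *C2*, *C1s1*, *Masp1*, *C4a*, *Mpo*, *Ltf*, *Retnlg*, *Plac8*, *Ly6c2* and the less abundant marker genes were chosen after their values were seen. Members and lists were chosen with earlier results of these data known. Alternatives were other pseudocounts, filters, scalings and variance models, a replicate block, limma-voom on the recovered fragments and each library left out. Levels by the longest transcript were an addition chosen after seeing the data.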

Additional observations from a re-analysis of the deposited data

How the results depend on the processing

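The 8 calls among the tested complement genes held in all 16 alternatives, and of the other complement genes 15 of 31 passed with no filter, 11 of 13 with a mean FPKM of at least 5, 14 of 18 with limma-voom and 10 to 14 of 19 otherwise. Leaving out 1 library gave 8 calls each time for the first group and 10 to 14 for the second, with 10 when control replicate 2 was left out. The log2 fold change of *Clu*, -0.17 with all libraries, was 0.0030 without control replicate 3, the 1 direction that turned, and ranged from -0.39 to 0.0030 over the libraries left out. *C1qbp* lost its call when control replicate 1, control replicate 2 or CITED2-deficient replicate 2 was left out (-0.19, -0.18 and -0.18), and *Cr1l* when control replicate 2, control replicate 3 or CITED2-deficient replicate 1 was (-0.12, -0.099 and -0.094). *C8g* passed without control replicate 3 (-0.45) and *Cd59a* without control replicate 1 (-0.29). Scaling moved the balance of all called genes: 32.5% were higher as reported, 42.0% after quantile normalization and 52.0% after median-ratio scaling, where the median over all tested genes was -0.050 and -0.0069. After the mean of its group was taken off each library, gene by gene, same-numbered libraries correlated at 0.014, 0.0078 and 0.040. These deviations show no pairing by number, but 3 libraries per group cannot exclude one. With the replicate block 8 of the 8 genes and 14 of the other 19 passed, and 5708 genes in all against 5994 without it. With the block the C1q share differences were -2.73, 1.83 and 0.91 percentage points, with an exact sign-flip permutation p of 0.25, the smallest possible for 3 pairs. With longest transcripts, a choice made after seeing the data, the *C1qa* share differed by -2.80 points. Depth limits *Cfb*, *C2*, *C1s1* and *Masp1* to small fragment numbers, and *C1ra* passed in 3 of 15 alternatives.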

Other observations

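Other macrophage genes give a scale for these changes. The high-affinity IgG receptor gene *Fcgr1*, whose product takes up antibody-coated targets, was higher. It was at 172, 172 and 173 FPKM in the controls and at 468, 501 and 478 FPKM in the CITED2-deficient libraries (log2 fold change 1.48). *Lyz2*, from whose locus Cre is made, was at 30.8, 30.6 and 32.5 FPKM against 9.39, 9.82 and 10.0 FPKM (log2 fold change -1.59). *Adgre1* and *Csf1r* were lower by 0.32 and 0.31 on the log2 scale, close to the fall of *C1qb*, while *Cd68* did not pass. *Mertk*, an uptake receptor for apoptotic cells, was lower (log2 fold change -0.26).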
